A study of Mus musculus with 19 samples.

Results

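The mitochondrial ribosomal protein genes are the nuclear genes whose symbols begin with Mrpl, for the large subunit, or Mrps, for the small subunit, followed by a digit. All rows of the expression table that met this rule were taken, pseudogene symbols ending in -ps being left out, which gave 75 of the 12942 genes listed, 46 Mrpl and 29 Mrps. All 75 passed the filter on low values, as did every listed gene. No measured level was used to choose among the listed genes, though every listed gene reached 1.01 CPM in its third-highest library. Mrpl53, a protein-coding gene in RefSeq, was not listed.

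The mitochondrial ribosome translates the messenger RNAs of the mitochondrial genome, which code for core subunits of the respiratory chain. Its ribosomal RNAs come from mitochondrial DNA, whereas its proteins are encoded in the nucleus, made in the cytosol and imported. Many are counterparts of bacterial ribosomal proteins and the others arose in the mitochondrial lineage. Mouse embryonic stem cells in culture are known to rely strongly on glycolysis while keeping active mitochondria.

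The 19 RNA-seq libraries, in 8 groups, came from J-34, J-35 or J-37, each a line of mouse embryonic stem cells (ESCs) labelled male, and were made after ribosomal RNA depletion. Cells at passage 4 were grown for 6 passages, to passage 10, in S/L (serum with the cytokine LIF), 2i/L (inhibitors of Mek1/2 and Gsk3 with LIF), a2i/L (inhibitors of Src and Gsk3 with LIF) or PKCi/L (an inhibitor of protein kinase C with LIF), or for 3 passages, to passage 7, in S/L+PD (S/L with the Mek1/2 inhibitor). Others were grown for 16 passages, to passage 20, in S/L or 2i/L, or were put back into S/L from 2i/L at that point and kept for 3 more passages, until passage 23. The first 5 groups held 2 libraries each, J-34 with J-35, or J-34 with J-37 for PKCi/L and S/L+PD, and the last 3 held J-34, J-35 and J-37. Every group grew on mouse embryonic fibroblast feeders and was sorted for the surface antigen SSEA1 before RNA extraction. In the titles, 1 PKCi/L and 1 S/L+PD library carry J-37, whereas another label gives J-35. By the titles, their comparisons with S/L at passage 10 set J-37 against J-35 as well as medium against medium, and for S/L+PD the passage differed too. Each library of a group came from another line, and no line was repeated within a group. The p-values therefore measure the spread between libraries of different lines, which may be partly technical.

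Levels are CPM as deposited, read counts scaled to the size of each library. Differences are log2(CPM + 0.5), and a gene was called where limma's adjusted p was below 0.05. The listed genes summed to 421426 to 465897 CPM in the 10 libraries of passages 7 and 10 and to 292986 to 396883 CPM in the 9 later ones. Lars2, the mitochondrial leucyl-tRNA synthetase gene, stood at 14870 to 29548 CPM in the later libraries and at 56.9 to 3797 CPM in the earlier ones. Every comparison is therefore given without scaling between libraries and after TMM scaling, which sets the bulk of genes level. Without scaling the median of all 12942 genes differed by 0.33 between 2i/L and S/L at passage 20, by 0.20 between the returned cells and S/L at passage 20, and by 0.29 in the test of 2i/L by passage. ESC markers summed to 1370 to 3341 CPM in every library. Of 18 fibroblast markers 16 were in the table, and they summed to 1313 and 2123 CPM in S/L+PD, 512 to 683 CPM in 2i/L at passage 20, 112 and 161 CPM in 2i/L at passage 10, and 23.6 to 83.8 CPM elsewhere. Of 8 primitive endoderm markers 7 were in the table, and they summed to 292 and 332 CPM in S/L at passage 10, 165 and 182 CPM in 2i/L, 128 and 151 CPM in a2i/L, 60.4 and 78.9 CPM in PKCi/L and 252 and 268 CPM in S/L+PD. The defining markers Gata6 and Gata4 were at 0.07 to 2.00 and 0.47 to 5.87 CPM over the 19 libraries, and Lama1, Lamb1 and Col4a1 made up most of the sum. At passages 20 and 23 the sum was 132 to 159 CPM in S/L, 147 to 202 CPM in 2i/L and 179 to 287 CPM in the returned cells. It was lower in the other 4 media than in S/L at passages 7 and 10, and its part in the differences described here was not tested. In bulk RNA, fewer cells of a type and less RNA per cell cannot be told apart.

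Summed over the 75 genes, the level was 1763 CPM in the J-34 and 2071 CPM in the J-35 library of S/L at passage 10. It lay between 1665 and 1761 CPM in the other 8 earlier libraries, so the S/L J-35 library stood above all of them. The sum was 1075 to 1535 CPM in S/L at passage 20, 1369 to 1494 CPM in 2i/L at passage 20 and 1362 to 1613 CPM in the returned cells, and these ranges overlapped. After TMM scaling the sum was 1614 to 1797 in S/L, 1375 to 1446 in 2i/L and 1571 to 1601 in the returned cells, with no overlap between the 3 groups. At passage 10 the scaled sums were 1543 and 1792 in S/L and 1447 and 1465 in 2i/L, again without overlap. As a share of the listed CPM the 75 genes made up 0.362% to 0.456% in every library.

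**Figure D1:**
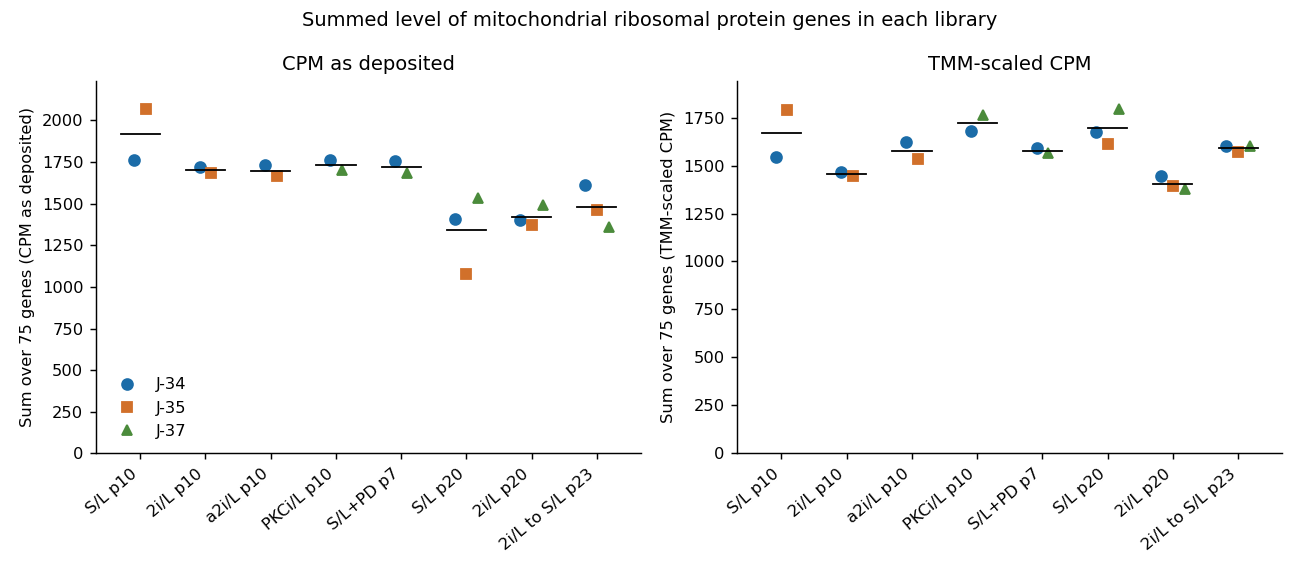
Summed level of the 75 mitochondrial ribosomal protein genes in each of the 19 libraries, in CPM as deposited (left) and TMM-scaled CPM (right), with the group mean as a line and the ESC line as symbol. After scaling the 3 libraries of 2i/L at passage 20 lie between 1375 and 1446, below every library of S/L at passage 20.

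The ratio of summed Mrpl to summed Mrps CPM, which no scaling between libraries can change, was 2.20 to 2.31 in the 3 libraries of S/L at passage 20 and 1.90 to 2.13 in the other 16. In 2i/L at passage 20 it was 1.93 to 2.00 and in the returned cells 2.07 to 2.13. At passage 10 it was 1.99 and 2.06 in S/L and 1.97 and 2.00 in 2i/L. S/L at passage 20 thus stood apart from all other groups, and no test was made of this sum.

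Mean levels over the 19 libraries ran from 2.85 to 67.7 CPM, with Mrpl15, Mrpl45 and Mrpl2 highest at 67.7, 47.4 and 42.7 CPM and Mrps33, Mrps36 and Mrpl23 lowest at 2.85, 2.86 and 3.16 CPM. Per kilobase of merged exons the highest were Mrpl2 at 36.5, Mrpl28 at 30.7 and Mrpl34 at 21.9 CPM per kb. Mrpl23 was lowest at 0.65 and the median gene stood at 8.54 CPM per kb. Merged exons take in every annotated transcript, 4883 bases for Mrpl23, so this order depends on the annotation as well as on the level. Mrpl2 codes for the counterpart of bacterial L2, which lies by the peptidyl transferase centre, and Mrpl23 for a protein at the exit of the nascent chain tunnel. Mrps36 carries a ribosomal symbol, but its product is now assigned to the oxoglutarate dehydrogenase complex. In the annotation 23 of the 75 overlap a protein-coding gene on the other strand and 3 one on the same strand, Mrps6 with Slc5a3, Mrps24 with Urgcp and Mrps34 with Nme3. Whether strand was used in counting is not given in the sources used here, so the values of these genes are uncertain to that extent.

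Group means of a single gene moved over a narrow range. On the TMM-scaled log2 scale the distance from the lowest to the highest of the 8 group means had a median of 0.65 for the 75 genes, 0.67 for 77 cytosolic ribosomal protein genes and 1.03 for all listed genes. Among 9006 listed genes with a mean CPM within the range of the 75 it was 0.95. The spread within groups was 0.11 for the 75 as a median SD and 0.13 for those 9006. Mrpl14, Mrpl52, Mrps18c and Mrps24 had the widest ranges, at 1.52, 1.32, 1.19 and 1.18. Mrpl37, Mrps7, Mrps23 and Mrpl49 had the narrowest, at 0.29, 0.30, 0.35 and 0.39. After scaling the lowest group mean belonged to 2i/L at passage 20 for 28 genes, and the highest to PKCi/L for 20, to S/L at passage 10 for 18 and to S/L at passage 20 for 14. Mrpl49, Mrps11, Mrps23, Mrps28 and Mrps34 were called in none of the 8 comparisons on either scale.

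**Figure D2:**
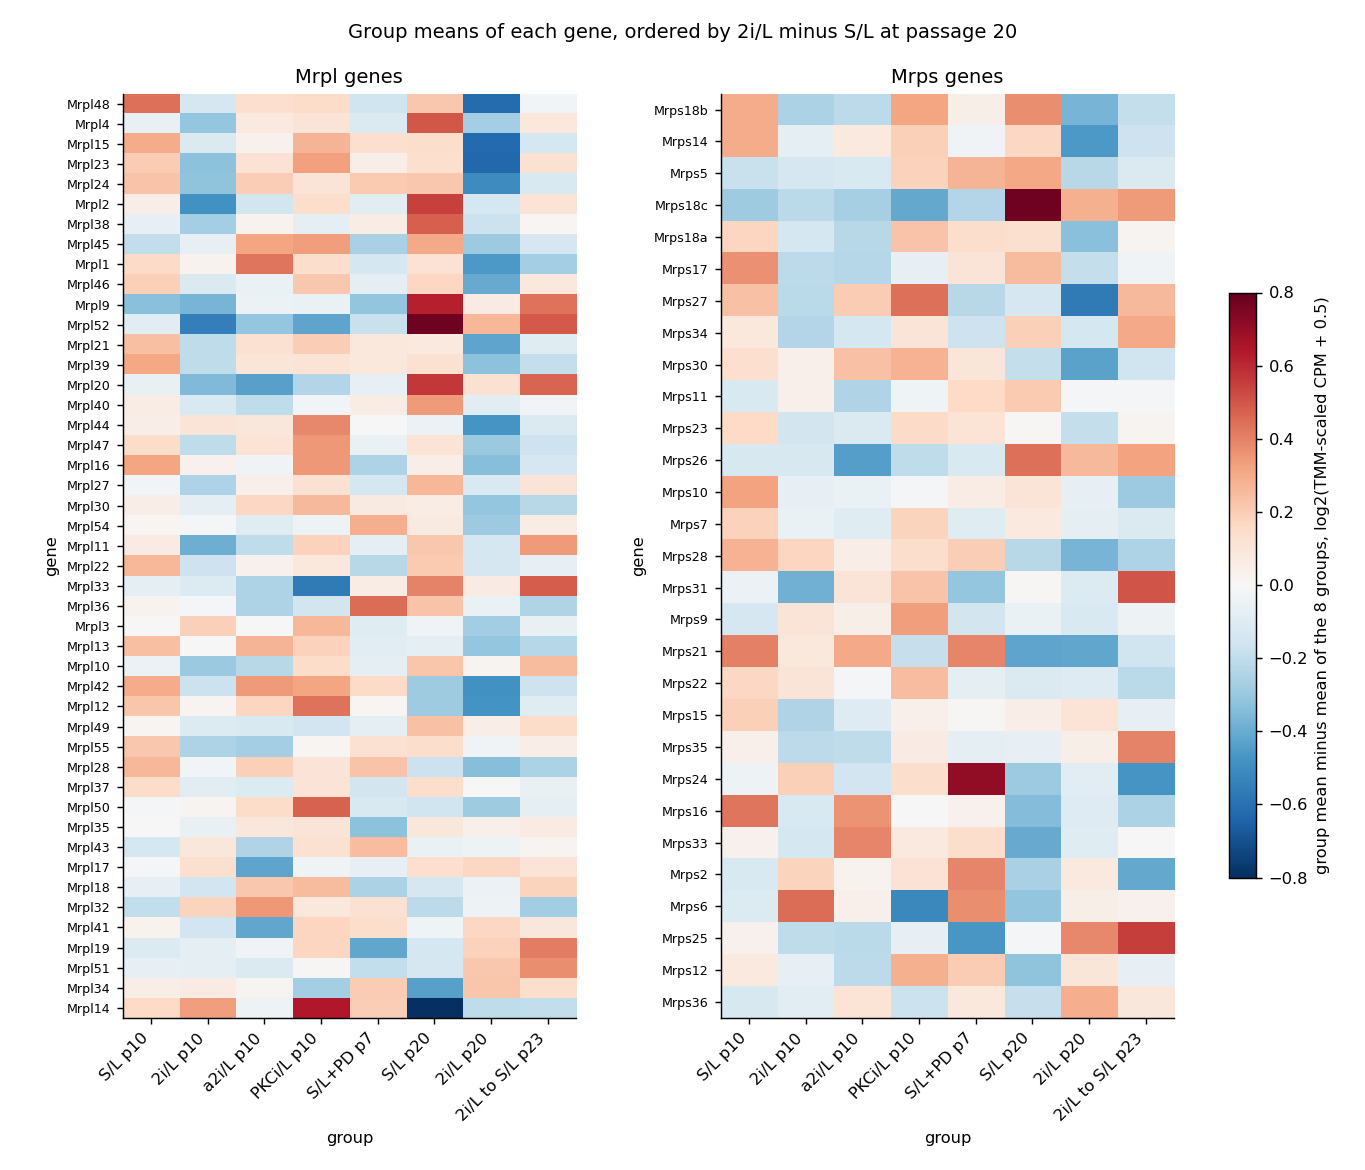
Each gene's group mean on log2(TMM-scaled CPM + 0.5) minus the mean of its 8 group means, with Mrpl genes on the left, Mrps genes on the right and rows ordered by 2i/L minus S/L at passage 20. The column of 2i/L at passage 20 is the lowest of the 8 for 28 genes, while Mrpl14 at the foot of the Mrpl panel is lowest in S/L at passage 20.

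Mrpl14, the counterpart of bacterial L14, which sits at the contact between the subunits, varied most. Its level was 5.30 and 6.58 CPM in S/L, 6.76 and 6.99 CPM in 2i/L, 4.63 and 4.86 CPM in a2i/L and 6.82 and 8.08 CPM in PKCi/L at passage 10. It was 1.45, 1.78 and 2.08 CPM in S/L at passage 20, 3.50 to 4.59 CPM in 2i/L at passage 20 and 2.93 to 4.07 CPM in the returned cells. The 3 libraries of S/L at passage 20 were below all other 16. Mrpl52, a mitochondria-specific large subunit protein, and Mrps18c, the counterpart of bacterial S18, went the other way. Scaled means in S/L at passage 20 were 25.1 for Mrpl52 and 25.4 for Mrps18c, against 13.5 and 11.9 in S/L at passage 10, and passages 10 and 20 were not tested against each other here.

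Promoter windows of 300 bases, 250 before and 50 after the start, were found in RefSeq (build GRCm38.p6) for 66 of the 75 genes. The windows below belong to Mrps24 and Mrps2, which were both called higher in S/L+PD and in 2i/L at passage 20 and lower after the return to S/L, to Mrps27, which rose most when 2i/L was withdrawn, and to Mrpl14 and Mrpl34, which rose most in 2i/L at passage 20. Capitals mark matches, on either strand, to the core GCGCA, any base, then GCGC of the factor NRF1, to CCGGAAG of ETS factors such as GABPA, and to AAGATGGCG of YY1, all known regulators of nuclear genes for mitochondria. They lie at chr11:5707652-5707951 on the minus strand and, on the plus strand, at chr2:28467816-28468115, chr13:99344536-99344835, chr17:45686099-45686398 and chr8:71464676-71464975.
Mrps24: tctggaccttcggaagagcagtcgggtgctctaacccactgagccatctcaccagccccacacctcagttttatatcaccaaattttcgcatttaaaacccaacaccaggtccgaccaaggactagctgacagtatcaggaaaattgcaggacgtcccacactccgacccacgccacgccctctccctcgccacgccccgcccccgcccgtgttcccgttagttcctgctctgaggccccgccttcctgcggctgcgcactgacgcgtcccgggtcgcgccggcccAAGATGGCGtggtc
Mrps2: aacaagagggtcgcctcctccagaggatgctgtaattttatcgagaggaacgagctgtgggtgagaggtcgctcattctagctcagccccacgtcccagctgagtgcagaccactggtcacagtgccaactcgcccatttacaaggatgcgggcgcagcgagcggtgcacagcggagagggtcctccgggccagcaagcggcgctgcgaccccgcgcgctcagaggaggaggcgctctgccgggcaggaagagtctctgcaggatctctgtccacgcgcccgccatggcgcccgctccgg
Mrps27: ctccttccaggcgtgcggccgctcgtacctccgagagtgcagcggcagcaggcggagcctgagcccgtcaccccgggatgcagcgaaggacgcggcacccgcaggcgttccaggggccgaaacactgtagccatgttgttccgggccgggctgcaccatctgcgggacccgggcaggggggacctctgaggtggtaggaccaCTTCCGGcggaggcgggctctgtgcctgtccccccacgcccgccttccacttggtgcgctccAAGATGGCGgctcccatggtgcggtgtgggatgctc
Mrpl14: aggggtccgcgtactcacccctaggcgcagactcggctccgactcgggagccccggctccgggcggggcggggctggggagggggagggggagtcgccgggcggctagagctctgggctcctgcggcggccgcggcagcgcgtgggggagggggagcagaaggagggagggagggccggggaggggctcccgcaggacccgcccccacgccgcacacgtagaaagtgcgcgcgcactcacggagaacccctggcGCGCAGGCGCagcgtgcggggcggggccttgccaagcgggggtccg
Mrpl34: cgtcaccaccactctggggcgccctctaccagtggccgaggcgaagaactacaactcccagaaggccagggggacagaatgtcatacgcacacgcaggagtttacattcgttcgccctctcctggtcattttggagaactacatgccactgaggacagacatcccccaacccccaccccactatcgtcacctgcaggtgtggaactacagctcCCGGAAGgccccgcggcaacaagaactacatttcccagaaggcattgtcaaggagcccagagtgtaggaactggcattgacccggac
The Mrps24 window holds the YY1 core near its end, Mrps27 an ETS core read on the opposite strand and a YY1 core, Mrpl14 an NRF1 core and Mrpl34 an ETS core, while the Mrps2 window holds none of these letters. Over the 66 genes the NRF1 core was in 18.18%, the ETS core in 34.85% and the YY1 core in 12.12%. Over all 27025 genes of the promoter table the shares were 5.188%, 9.928% and 1.639%, and over the 8950 of them with CPM values they were 11.66%, 19.87% and 3.598%. At least 1 of the 3 was in 57.58% of the 66 genes and in 31.33% of the 8950. A match is a description of the sequence and says nothing of binding.

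In 2i/L at passage 10 most of the genes that changed were lower than in S/L, and they came from both subunits. Without scaling 13 of the 75 were called lower, 9 Mrpl and 4 Mrps, and 1 was called higher. Of all genes 17.5% were called lower and 22.7% higher, so the share of lower calls among the 75 was close to the background. After TMM scaling 29 were lower and 4 higher, against 23.4% and 26.0% of all genes. The median difference of the 75 was -0.18 without scaling and -0.21 with it, against 0.04 and 0.01 for all genes.

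Mrpl48, a mitochondria-specific large subunit gene, was at 12.71 and 16.84 CPM in S/L and 9.05 and 10.56 CPM in 2i/L, and fell by 0.56 ± 0.20 (SE, adjusted p = 0.024). Mrps17, the counterpart of bacterial S17, went from 30.09 and 33.63 to 19.48 and 23.72 CPM, a fall of 0.55 ± 0.16 (adjusted p = 0.0041). Mrps18b, a paralog of bacterial S18, went from 15.05 and 20.66 to 11.34 and 12.81 CPM and fell by 0.53 ± 0.18 (adjusted p = 0.018). In each of these 3 genes both 2i/L libraries were below both S/L libraries. Mrps6, the counterpart of bacterial S6, was the gene that rose, from 5.82 and 6.04 to 8.51 and 9.79 CPM (0.58 ± 0.19, adjusted p = 0.015). The 13 lower calls became 0 without the S/L J-35 library, 5 without the 2i/L J-34 and 6 without the 2i/L J-35 library. The scaled 29 became 8 without S/L J-35 and 14 without 2i/L J-34, and the scaled 4 higher became 1 without S/L J-34 or either 2i/L library. Mrpl48, Mrps17 and Mrps18b lost their call without the S/L J-35 or the 2i/L J-35 library, with values from -0.48 to -0.31. Mrps6 lost it without either S/L library or the 2i/L J-34 library, at 0.49 to 0.61.

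In a2i/L the single rise without scaling was in Mrpl45, whose product anchors the ribosome to the inner membrane at the tunnel exit. Without scaling 8 genes were lower and 1 higher, and after TMM scaling 12 and 4. Of all genes 17.3% were lower and 10.7% higher without scaling, and 18.2% and 18.7% with it. Over the 75 the median was -0.20 without and -0.11 with scaling, against -0.09 and -0.0011 for all genes. Mrpl45 stood at 44.18 and 49.74 CPM in S/L and 60.24 and 65.60 CPM in a2i/L, a rise of 0.42 ± 0.15 (adjusted p = 0.034). Among the falls were Mrps17, by 0.68 ± 0.16 (adjusted p = 0.00093), Mrps18b, by 0.60 ± 0.18 (adjusted p = 0.012), and Mrpl55, by 0.58 ± 0.17 (adjusted p = 0.011). Mrps17 was at 19.59 and 19.63 CPM, Mrps18b at 10.16 and 13.01 CPM and Mrpl55 at 10.52 and 11.60 CPM in a2i/L, each below both S/L libraries. Mrps18a, the S18 paralog whose product sits in the large subunit, also fell, by 0.48 ± 0.17, whereas Mrps18c was at 12.61 and 13.33 CPM beside 13.40 and 13.87 CPM in S/L and was not called. The 8 lower calls became 1 without the S/L J-35, 3 without the a2i/L J-34 and 2 without the a2i/L J-35 library. The scaled 12 became 2 without S/L J-35 and 5 without a2i/L J-35, and the scaled 4 higher 1 without S/L J-34 and 2 without either a2i/L library. Mrpl45 lost its call without any 1 of the 4 libraries, at 0.33 to 0.50. Mrps18b lost it without S/L J-35 or a2i/L J-34 and Mrpl55 without S/L J-35 or a2i/L J-35, at -0.51 to -0.37.

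In PKCi/L the median of the 75 genes changed sign with the scaling, and so did that of all genes. Without scaling 8 genes were lower and 0 higher, the latter beside 1 gene at an unadjusted p below 0.05. After TMM scaling 7 were lower and 11 higher. Of all genes 23.5% were lower and 5.80% higher without scaling, and 18.6% and 18% with it. The 75 had a median of -0.16 without and 0.02 with scaling, against -0.17 and 0.01 for all genes. The 7 genes lower on both scales came from both subunits. Mrps21 went from 10.49 and 12.99 CPM in S/L to 6.29 and 6.99 CPM (-0.77 ± 0.21, adjusted p = 0.004), and Mrps16 from 35.88 and 43.31 to 25.37 and 25.38 CPM (-0.63 ± 0.16, adjusted p = 0.0022). The large subunit gene Mrpl33 went from 20.64 and 23.81 to 12.81 and 14.63 CPM (-0.68 ± 0.17, adjusted p = 0.0023). The PKCi/L libraries lay below both S/L libraries in all 3. After scaling Mrpl45 was higher here as in a2i/L, by 0.53 ± 0.12, and so was Mrpl44, whose product has a ribonuclease III fold, by 0.33 ± 0.10. The 8 lower calls became 3 without S/L J-35 and 5 without PKCi/L J-37. The scaled 11 higher became 2 without S/L J-34 and 5 without PKCi/L J-34, and the scaled 7 lower 2 without S/L J-35 and 3 without PKCi/L J-34. Mrps21 (-0.62) and Mrps16 (-0.49) lost their call without S/L J-35.

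With the Mek1/2 inhibitor added to S/L, 3 small subunit genes rose and 8 genes fell on both scales. Without scaling these were all the calls, and after TMM scaling there were 6 higher and 14 lower. Of all genes 16.4% were higher and 19.3% lower without scaling, and 23.4% and 21.3% with it. The median of the 75 was -0.17 without and -0.09 with scaling, against -0.06 and 0.01 for all genes. Mrps24, the counterpart of bacterial S3 at the messenger RNA entry, was at 27.61 and 31.21 CPM in S/L and 47.03 and 47.70 CPM in S/L+PD (0.68 ± 0.15, adjusted p = 0.00047). Mrps2, the counterpart of bacterial S2, rose from 25.51 and 32.27 to 36.84 and 41.63 CPM (0.44 ± 0.15, adjusted p = 0.018), and Mrps5 from 33.49 and 37.58 to 46.23 and 46.43 CPM (0.38 ± 0.15, adjusted p = 0.042). Both S/L+PD libraries were above both S/L libraries in these 3. Mrpl48 fell by 0.68 ± 0.20 (adjusted p = 0.0074), Mrpl16, the counterpart of bacterial L16 near the A site, by 0.64 ± 0.18 (adjusted p = 0.0054), and Mrps25 by 0.57 ± 0.16 (adjusted p = 0.0044). Their S/L+PD values were 8.44 and 9.52 CPM, 12.92 and 13.37 CPM, and 13.13 and 14.69 CPM. The fibroblast marker sum of 1313 and 2123 CPM in S/L+PD, against 37.3 and 42.7 CPM in S/L, moved with these changes, and its part in them was not tested. The 8 lower calls became 1 without S/L J-35, 5 without S/L+PD J-34 and 3 without S/L+PD J-37. The scaled 14 became 3 without S/L J-35 and 7 without S/L+PD J-37. The 3 higher became 1, and the scaled 6 became 3, without S/L J-34 or S/L+PD J-34. Mrps5 lost its call without any 1 of the 4 libraries and with ESC line as a block (log2 difference 0.32, against 0.30 to 0.46 with libraries left out). Mrps2 lost it without S/L J-34 (0.28) or S/L+PD J-34 (0.36), Mrpl48 without S/L J-35 (-0.48) or S/L+PD J-34 (-0.60), Mrpl16 without S/L J-35 (-0.50) and Mrps25 without S/L+PD J-37 (-0.49). Mrps24 kept its call with each library left out.

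**Figure D3:**
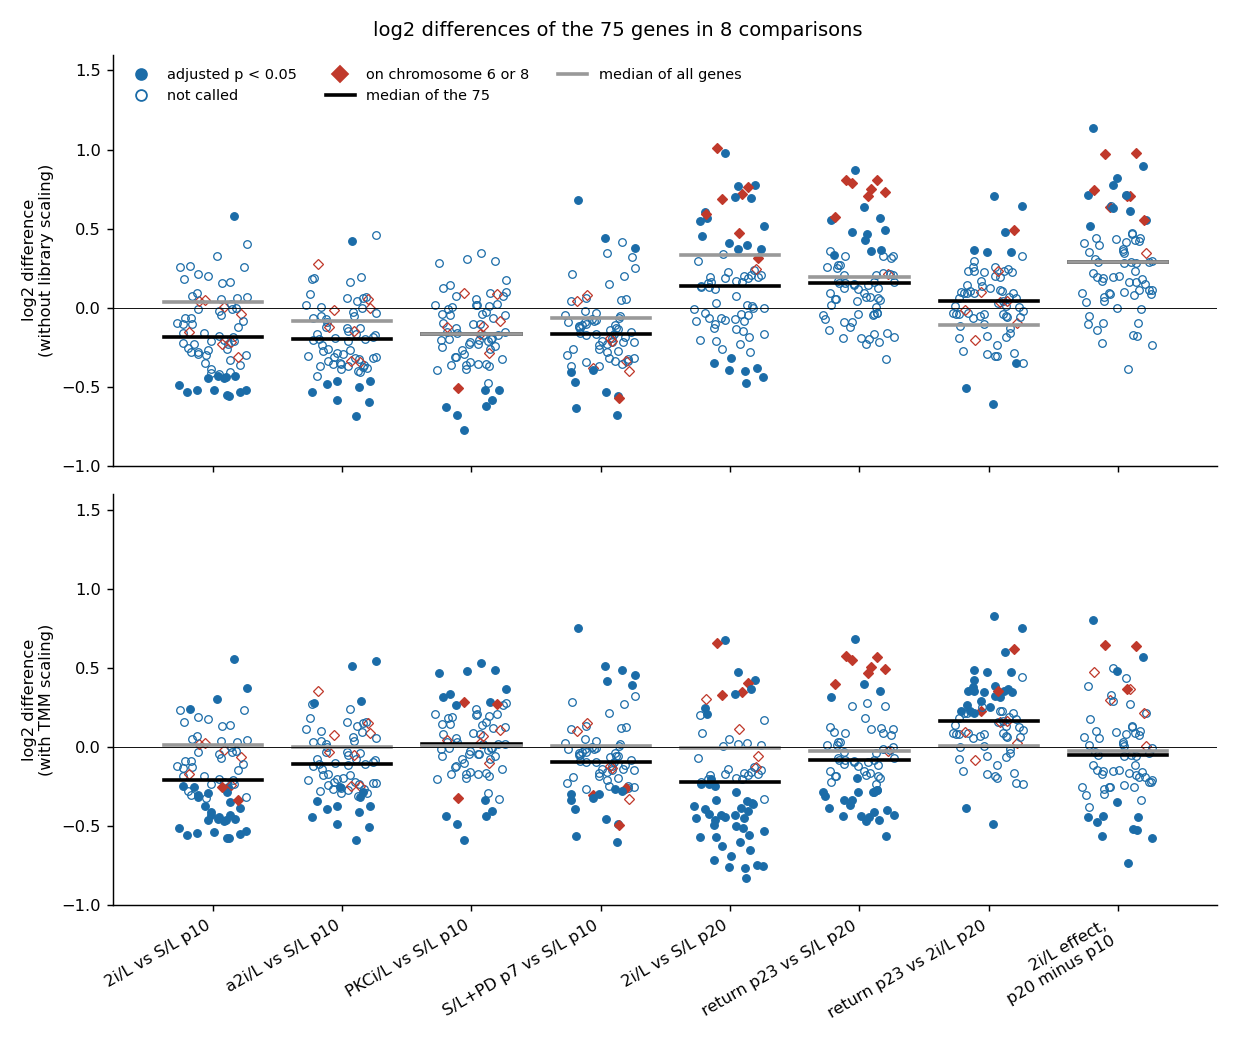
Difference of each of the 75 genes in the 8 comparisons on log2(CPM + 0.5), without (top) and with TMM scaling (bottom). Filled points passed the threshold, red diamonds lie on chromosomes 6 or 8, and black and grey bars are the medians of the 75 and of all genes. At passage 20 the median of the 75 in 2i/L moves from 0.13 without scaling to -0.22 with it.

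At passage 20 the count in 2i/L ran towards higher levels without scaling, 21 higher and 7 lower, and towards lower levels after TMM scaling, 11 higher and 37 lower. Of all genes 50% were higher and 12.3% lower without scaling, and 32.3% and 32.1% with it. The median of the 75 was 0.13 without scaling, below the 0.33 of all genes, and -0.22 with scaling, where that of all genes was -0.01. By symbol, 4 Mrpl genes were higher and 29 lower after scaling, against 7 Mrps genes higher and 8 lower. The difference was not tested. Symbol and subunit are not the same, since Mrps18a and Mrps30, of the large subunit, were among the 8 and Mrps36 among the 7. On both scales 11 genes were higher and 7 lower.

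Mrpl34, the counterpart of bacterial L34, was at 6.21, 7.90 and 8.09 CPM in S/L and 13.85, 14.85 and 17.48 CPM in 2i/L, and rose by 1.01 ± 0.14 (adjusted p = 6.2e-08). It was the 1 gene of the 75 to pass 2-fold here without scaling, as 19.1% of all genes did, and the scaled rise was 0.66 ± 0.10. Mrpl14 rose by 0.98 ± 0.16 (adjusted p = 3.2e-06) and by 0.68 after scaling. Mrps12, which forms part of the decoding centre, went from 6.19, 8.94 and 9.59 CPM to 12.89, 14.74 and 15.22 CPM, a rise of 0.78 ± 0.15 (adjusted p = 1.9e-05), or 0.42 after scaling. Of the 3 genes that rose with the Mek1/2 inhibitor in S/L, Mrps2 and Mrps24 rose here by 0.70 ± 0.12 and 0.57 ± 0.12, or 0.34 and 0.21 after scaling. Mrps5 was not called without scaling (-0.16 ± 0.12) and fell by 0.53 ± 0.08 after it. In the 5 genes that rose, every 2i/L library was above every S/L library.

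Of the 7 genes lower on both scales 6 were Mrpl and 1 was Mrps, in a family of 46 and 29. Mrpl48 was at 6.52, 8.57 and 10.77 CPM in S/L and 5.13, 5.86 and 6.91 CPM in 2i/L (-0.48 ± 0.16, adjusted p = 0.011), so that the lowest S/L library lay within the 2i/L range. Mrpl23 fell by 0.44 ± 0.17 (adjusted p = 0.025) and Mrpl4, whose bacterial counterpart lines the tunnel, by 0.40 ± 0.13 (adjusted p = 0.0071). After scaling these falls were 0.83, 0.75 and 0.77. Mrpl15, the gene with the highest CPM, was at 44.49, 63.03 and 69.33 CPM in S/L and 43.15 to 45.57 CPM in 2i/L, a fall of 0.39 ± 0.13, or 0.76 after scaling. The 7 lower calls without scaling became 0 without the S/L J-37 library, 3 without S/L J-34 or 2i/L J-35, 4 without 2i/L J-37 and 15 without S/L J-35. The scaled 37 stayed between 34 and 40. Mrpl48, Mrpl23 and Mrpl4 lost their unscaled call without S/L J-37, at -0.32 to -0.30. Mrpl48 also lost it without 2i/L J-35 (-0.38), and Mrpl23 without 2i/L J-34 (-0.32) or 2i/L J-37 (-0.40). The rises of Mrpl34, Mrpl14 and Mrps12 kept their call with each library left out. The fibroblast marker sum was 512 to 683 CPM in 2i/L and 57.2 to 83.8 CPM in S/L, and its part in these differences was not tested.

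Both passages shared part of their genes. After scaling 21 genes were lower in 2i/L at both, which is 72.4% of the 29 at passage 10 and 56.8% of the 37 at passage 20. For all genes the shared 1798 made up 59.3% and 43.3%. Mrps2, Mrps24 and Mrps6 were the 3 genes higher at both passages after scaling, 75% of the 4 and 27.3% of the 11, beside 62.4% and 50.2% for all genes. Without scaling Mrpl2, Mrpl23, Mrpl24, Mrpl48 and Mrps18b were lower at both, 38.5% of the 13 and 71.4% of the 7, beside 36.1% and 51.4% for all genes. The libraries of the 2 passages are separate, so these comparisons share no control library. The lines J-34 and J-35 are in both, so the comparisons are not independent of line. Mrpl2 was at 46.46 and 52.68 CPM in S/L and 34.40 and 34.44 CPM in 2i/L at passage 10, and its scaled fall was 0.54 ± 0.10 at passage 10 and 0.69 ± 0.08 at passage 20.

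The test of the difference between the passages, the 2i/L effect at passage 20 minus that at passage 10, called 17 genes higher and 0 lower without scaling and 6 higher and 10 lower after TMM scaling. Of all genes 29.9% were higher and 7.10% lower without scaling, and 19.1% and 20.5% with it. Their median was 0.29 without scaling, equal to that of all genes, and -0.05 with it, against -0.03 for all genes. Mrps16 was the largest. Its 2i/L effect was -0.53 ± 0.16 at passage 10, where it went from 35.88 and 43.31 CPM in S/L to 26.97 and 27.29 CPM, and 0.61 ± 0.13 at passage 20, where it went from 12.79, 16.09 and 18.07 CPM to 22.90, 24.33 and 24.44 CPM. The difference was 1.14 ± 0.20 (adjusted p = 3.6e-05), or 0.80 ± 0.13 after scaling. Mrps25 (0.98 ± 0.20), Mrpl34 (0.97 ± 0.21), Mrps12 (0.90 ± 0.23), Mrps15 and Mrps35 were the others higher on both scales. The 0 lower calls stood beside 0 genes at an unadjusted p below 0.05, and 1 was called without S/L J-35 of passage 20. The 17 became 5 without S/L J-35 and 8 without 2i/L J-35 of passage 10, and 11 without S/L J-35 and 9 without 2i/L J-37 of passage 20. The scaled 6 became 11 without S/L J-34 and 3 without S/L J-35 of passage 10, and the scaled 10 became 6 without that S/L J-34 library.

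**Figure D4:**
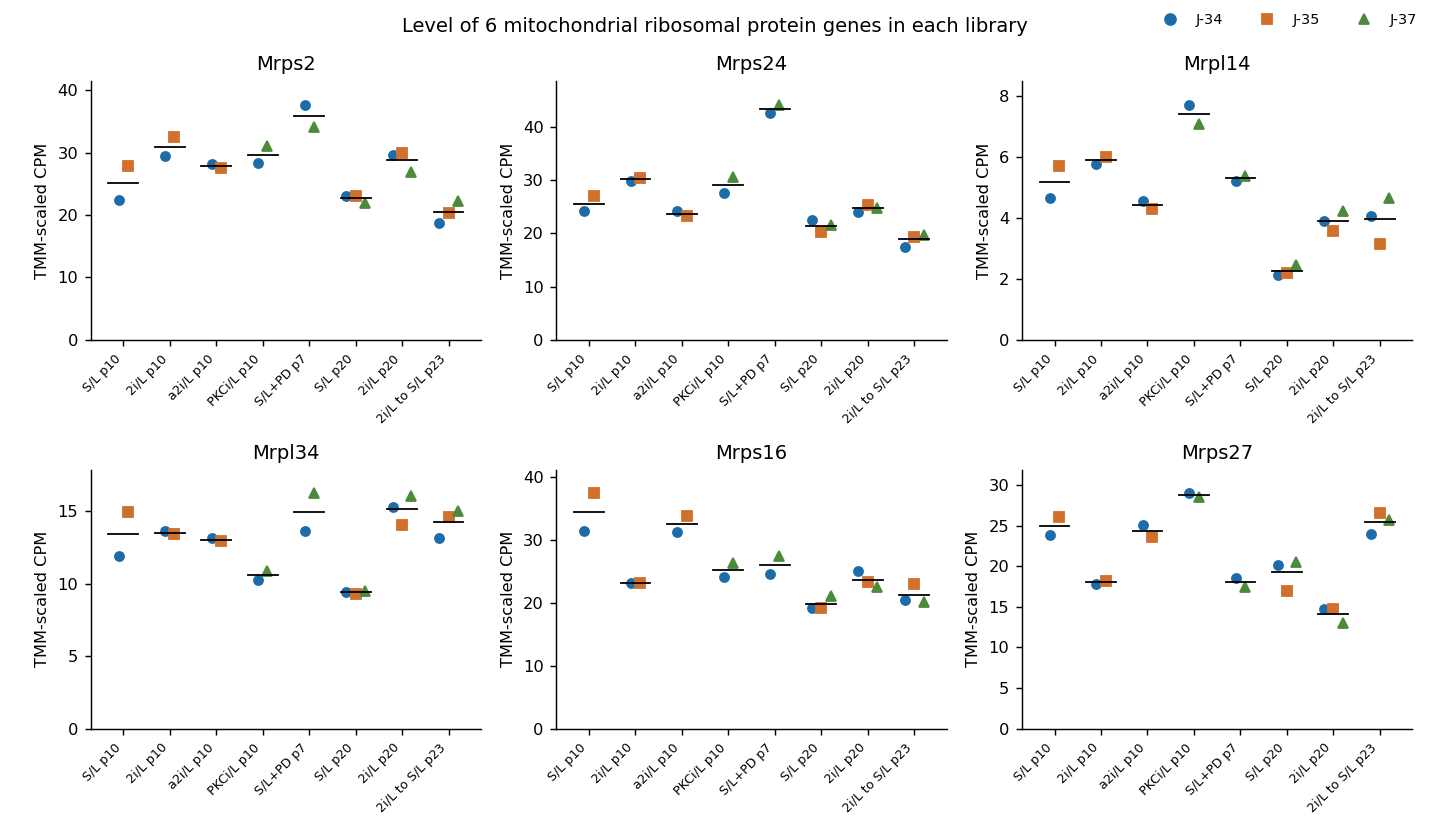
TMM-scaled CPM of 6 genes in each of the 19 libraries, by group, with the group mean as a line and the ESC line as symbol. Mrps2 and Mrps24 are highest in S/L+PD, Mrpl14 and Mrpl34 lowest in S/L at passage 20, and Mrps27 is lowest in 2i/L at passage 20 and higher again in the returned cells.

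After the return to S/L the cells were compared with 2i/L at passage 20. Without scaling 7 genes were higher and 3 lower, and after TMM scaling 26 were higher and 2 lower. Of all genes 15.8% were higher and 30.3% lower without scaling, and 27.3% and 27.7% with it. Over the 75 it was, as a median, 0.04 and, after scaling, 0.16, against -0.11 and 0.01 for all genes. Mrps27, a small subunit protein of the pentatricopeptide repeat family, was at 14.10, 14.29 and 14.46 CPM in 2i/L and 21.89, 24.15 and 24.80 CPM after the return (0.70 ± 0.13, adjusted p = 3.7e-05). Mrpl23 rose by 0.64 ± 0.17 (adjusted p = 0.002) and Mrps31 by 0.49 ± 0.12 (adjusted p = 0.001). Mrps2 went from 28.69, 29.26 and 29.44 CPM to 18.79, 18.94 and 18.96 CPM (-0.61 ± 0.12, adjusted p = 6.9e-05), and Mrps24 from 23.42, 25.05 and 27.04 CPM to 16.87, 17.56 and 18.06 CPM (-0.51 ± 0.12, adjusted p = 0.00083). The groups did not overlap in any of these genes or in Mrps10, all named for the size of their change. The share of all genes whose groups did not overlap was not counted, here or in the other comparisons. Mrps10 was the third gene that fell, by 0.35 ± 0.13 (adjusted p = 0.031), and after scaling it was not called (-0.23 ± 0.11). The 7 higher calls became 3 without 2i/L J-35 or the returned J-34 library and 4 without the returned J-35 library. Mrps10 lost its call without the J-34 or J-37 library of either group, at -0.35 to -0.28. The other 5 named genes kept theirs with each library left out. The fibroblast marker sum, 55.0 to 71.1 CPM after the return, moved with this comparison, and its part was not tested.

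Against S/L at passage 20 the returned cells had 18 genes higher and 0 lower without scaling, and 11 higher and 21 lower after TMM scaling. Of all genes 32.7% were higher and 6.63% lower without scaling, and 21.5% and 22.8% with it. The 75 had a median of 0.16 without and -0.09 with scaling, against 0.20 and -0.02 for all genes. Mrpl14 rose by 0.87 ± 0.16 (adjusted p = 5.2e-05), Mrps25 by 0.81 ± 0.13 (adjusted p = 5.1e-06) and Mrpl34 by 0.80 ± 0.14 (adjusted p = 1.2e-05), with every returned library above every S/L library. Mrps25 was at 12.51, 13.33 and 15.41 CPM in S/L and 23.12, 23.67 and 26.33 CPM in the returned cells. After scaling the falls included Mrps18b (0.56 ± 0.11), Mrpl2 (0.44 ± 0.08) and Mrps5 (0.43 ± 0.08), none of them called without scaling. This comparison and that of 2i/L at passage 20 share their S/L libraries, and both comparisons of the return share the returned libraries. The 18 higher calls became 10 without S/L J-35, and the 0 lower, beside 1 gene at an unadjusted p below 0.05, became 5 without it and 1 without the returned J-34 library. Mrpl14, Mrps25 and Mrpl34 kept their call with each library left out.

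Of the 11 genes higher on both scales in the returned cells than in S/L at passage 20, 7 lay on chromosomes 6 and 8. In 2i/L at passage 20 other genes of chromosome 6 had a scaled median of 0.42 (287 genes) and those of chromosome 8 of 0.41 (357 genes), counting genes with a mean of at least 10 scaled CPM. In the returned cells the medians were 0.45 and 0.49. Library by library, relative to each gene's median over the 19, chromosome 6 stood at 0.19 to 0.34 in the 6 libraries of 2i/L at passage 20 and of the return, and chromosome 8 at 0.23 to 0.35. In the other 13 libraries both stood below 0. The family has 8 members there, Mrpl19, Mrpl35, Mrpl51, Mrps25, Mrps33 and Mrps35 on chromosome 6 and Mrpl34 and Mrps31 on chromosome 8. Counted apart, 7 of the 8 were higher in the returned cells than in S/L at passage 20 on both scales and 0 lower, whereas of the other 67 genes 11 were higher and 0 lower without scaling and 4 higher and 21 lower with it. In 2i/L at passage 20 the 8 gave 7 higher without scaling and 4 with it, and the other 67 gave 14 higher and 7 lower, and 7 higher and 37 lower with scaling. Over all genes, 32.7% were higher and 6.63% lower in the returned cells without scaling, and 21.5% and 22.8% with it. For 2i/L at passage 20 these shares were 50% and 12.3% without scaling, and 32.3% and 32.1% with it. The share called among the other genes of chromosomes 6 and 8 is not given here. The scaled differences of the 7 in the returned cells, 0.40 to 0.57, stood -0.06 to 0.11 from their chromosome's median. These 7 were the ones called higher. Mrpl35, the gene not called, was at -0.03, which is -0.48 from its chromosome's median. In 2i/L at passage 20 the scaled differences of the 8 stood from -0.53 (Mrps31) to 0.25 (Mrpl34) from their chromosome's median. The part of the chromosome in these differences was not tested.

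**Figure D5:**
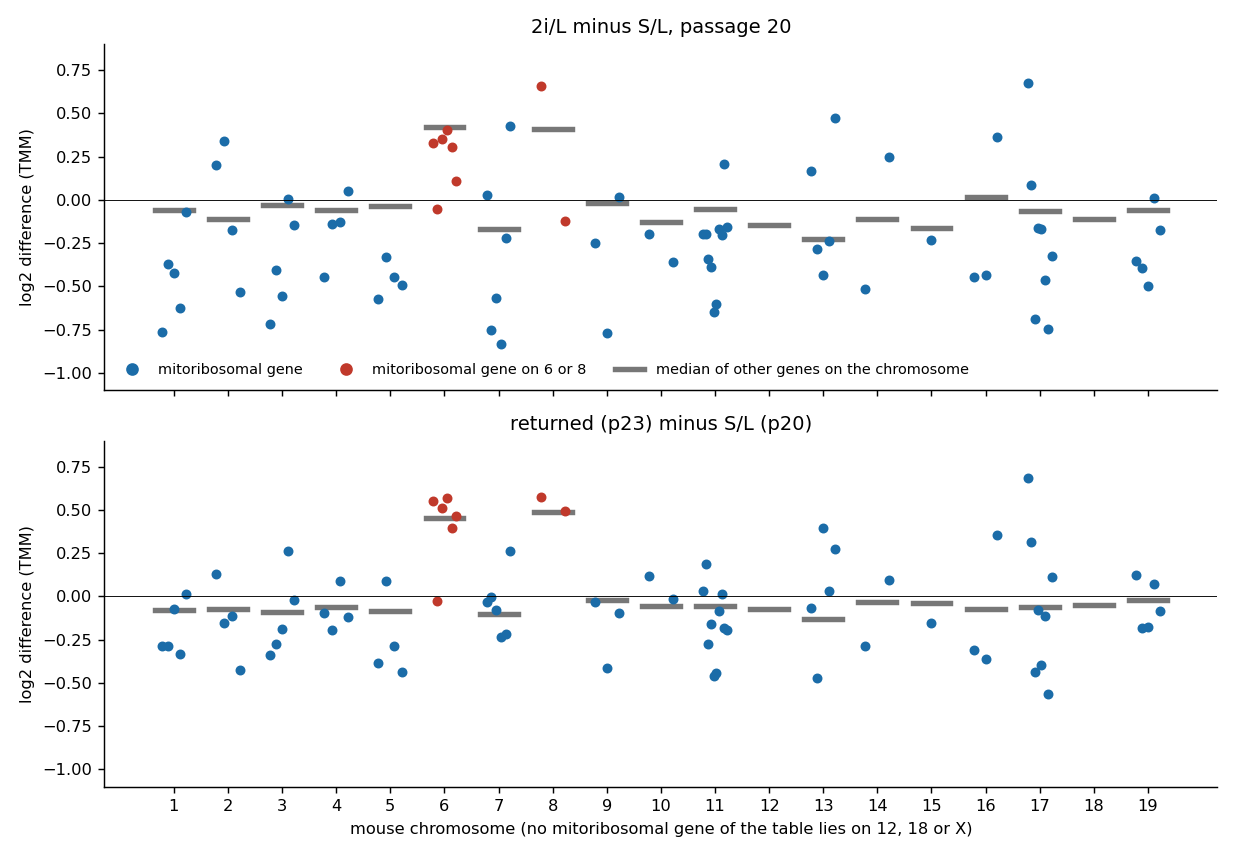
TMM-scaled log2 difference of each mitochondrial ribosomal protein gene, placed by mouse chromosome, in 2i/L minus S/L at passage 20 (top) and returned cells minus S/L at passage 20 (bottom), with grey bars for the median of the other genes of each chromosome. In the returned cells 7 of the 8 genes on chromosomes 6 and 8 lie between 0.40 and 0.57, beside chromosome medians of 0.45 and 0.49.

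Mrpl14 on chromosome 17 and Mrps6 on chromosome 16, higher on both scales in 2i/L at passage 20 and in the returned cells, lay on chromosomes with scaled medians of -0.07 to 0.01. On chromosome 19 the J-34 libraries stood apart, with a chromosome median of 0.21 in 2i/L at passage 20 and 0.07 after the return, against -0.10 and -0.09 and then -0.08 and -0.07 in J-35 and J-37. Mrpl11, whose product forms part of the GTPase-binding region and whose gene lies on chromosome 19, was at 29.71 CPM in J-34 and 20.80 and 24.65 CPM in J-35 and J-37 in 2i/L at passage 20. After the return it was at 37.65, 31.84 and 26.85 CPM in J-34, J-35 and J-37.

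Of the other genes chosen for their known roles, the stalk genes Mrpl12 and Mrpl10, whose products recruit translation factors, were called in 1 and 0 of the 8 comparisons without scaling and in 1 and 3 after TMM scaling. Mrpl12 was higher in the returned cells than in S/L at passage 20 by 0.43 ± 0.15 without scaling, and was not called with it (0.19 ± 0.12). Of the 3 S18 paralogs, Mrps18b was lower in 2i/L at both passages and in a2i/L on both scales, and Mrps18a in a2i/L on both scales. All 3 were lower in 2i/L at passage 20 after scaling, by 0.74 ± 0.11 for Mrps18b, 0.49 ± 0.10 for Mrps18c and 0.46 ± 0.10 for Mrps18a, and without scaling only Mrps18b was. Differences among the 3 were not tested. Mrps30, a large subunit protein despite its symbol, was not called without scaling and was 0.24 ± 0.07 lower in 2i/L at passage 20 with it. Mrps22, a gene of mitochondrial disease in humans, was 0.37 ± 0.13 higher in 2i/L at passage 20 without scaling, and its scaled difference was 0.02 ± 0.09. Mrpl3, Mrpl40 and Mrpl28 were called in 0 comparisons without scaling and in 4, 2 and 1 after it. Mrpl41 was lower in a2i/L on both scales (-0.54 and -0.44). Mrps36 was higher in 2i/L at passage 20 on both scales (0.77 and 0.47).

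Other genes of mitochondrial translation were taken from lists. Of 7 mitochondrial ribosomal proteins with other symbols, 3 were lower and 0 higher in 2i/L at passage 10 without scaling, and 4 lower and 1 higher with it. Among them was Ict1, which codes for a peptidyl-tRNA hydrolase built into the large subunit. Without scaling Ict1 fell by 0.65 ± 0.18 at passage 10 and rose by 0.67 ± 0.15 at passage 20. The median difference of all genes at passage 20 was 0.33 on that scale. Of 14 measured mitochondrial translation factors, 10 were lower and 0 higher in S/L+PD on both scales, with a median of -0.44 without scaling and -0.37 with it. Without scaling Gfm2, the ribosome recycling factor, fell by 1.07 ± 0.16, Mtif2, the initiation factor, by 0.84 ± 0.18, and Tufm, the elongation factor, by 0.38 ± 0.15. In 2i/L at passage 20 the same list had 7 higher and 2 lower without scaling, and 3 and 6 with it. Of 23 measured assembly and rRNA modification genes, 4 were higher and 6 lower in 2i/L at passage 10, or 4 and 9 with scaling. Of 19 mitochondrial tRNA ligases, Lars2 left out, 0 were higher and 6 lower in S/L+PD, or 1 and 8 with scaling. Over all genes, 16.4% were higher and 19.3% lower in S/L+PD without scaling and 23.4% and 21.3% with it, and the fibroblast marker sum of 1313 and 2123 CPM moved with these counts too. Of 9 genes of mitochondrial DNA transcription and replication, 0 were higher and 3 lower in 2i/L at passage 10 on either scale. Counts of each list in the comparisons not named with it are not given here and may differ. The counts in 2i/L at passage 10 stand beside 22.7% of all genes higher and 17.5% lower without scaling, and 26.0% and 23.4% with it, and those at passage 20 beside 50% and 12.3%, and 32.3% and 32.1%.

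The 77 cytosolic ribosomal protein genes were a second reference. In 2i/L at passage 20 they had 2 higher and 2 lower without scaling and 0 higher and 70 lower with it, with medians of -0.06 and -0.43. In PKCi/L they had 3 higher and 0 lower, or 38 and 0 with scaling. Beside these, 5.80% of all genes were higher and 23.5% lower in PKCi/L without scaling, and 18% and 18.6% with it. Of the 12 measured regulators of nuclear genes for mitochondria, Myc was called lower on both scales in 2i/L at passage 10, where it was at 0.07 CPM in both libraries against 2.52 ± 0.23 CPM (SD, n = 2) in S/L, and in S/L+PD, at 0.40 ± 0.11 CPM (SD, n = 2). Without scaling Mycn rose in S/L+PD by 1.32 ± 0.21, from 38.7 ± 6.57 to 97.1 ± 2.39 CPM (SD, n = 2). On the same scale Mycn fell in 2i/L at passage 20 by 2.05 ± 0.17, from 88.7 ± 28.1 to 20.4 ± 3.62 CPM (SD, n = 3). Myc was also low in 2i/L at passage 20, at 0.50 ± 0.19 CPM against 2.57 ± 0.02 CPM in S/L (SD, n = 3). Its level was 0.21 ± 0.21 CPM in a2i/L and 1.54 ± 0.99 CPM in PKCi/L (SD, n = 2). In the returned cells it was 5.82 ± 1.14 CPM (SD, n = 3). Nrf1 was not called without scaling in 2i/L at passage 10 or 20 or in S/L+PD. Without scaling Gabpa was at 76.55 ± 3.03 CPM in S/L and 102.46 ± 4.89 CPM in 2i/L at passage 10 (SD, n = 2). At passage 20 it was at 48.1 ± 2.17 and 64.7 ± 4.22 CPM (SD, n = 3). Yy1 went from 36.4 ± 3.23 to 45.8 ± 3.14 CPM at passage 10 (SD, n = 2). At passage 20 it was at 24.1 CPM in S/L and in 2i/L. Calls for Gabpa and Yy1 and levels of the remaining regulators are not given here.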

How the data were processed

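The deposited table holds CPM per gene for 19 libraries, on a linear scale with 2 decimals, per the file headers and values. Per the submitters' processing notes the tools included edgeR 3.8.6, HTSeq 0.6.0 and STAR 2.3.0, with Picard 1.100 as well as SAMtools 0.1.18.0, and the builds named are mm9 and NCBIM37. Its 12942 genes all reached 1.01 CPM in their third-highest library. Whole reads could not be recovered from values rounded by the authors, so no count test was run. The grid of low values gave a depth for 15 libraries, 33.9 to 45.45 M reads for 10 earlier and 49.65 to 85.35 M for 5 later ones.

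Libraries were grouped by medium and passage from their titles. Replicate log2 values correlated at 0.9889 to 0.9954 within groups (14 pairs, across genes, which are not independent replicates). The test used R 4.3.3 and its package limma 3.58.1 (eBayes with trend after lmFit) on log2(CPM + 0.5), in 1 fit with 11 residual degrees of freedom, with Benjamini-Hochberg adjustment over all genes within each of 8 comparisons. A fold change on this scale understates that of low genes. The planned filter, 1 CPM in 2 libraries, removed 0 genes. TMM factors were computed from the CPM, unweighted, with trims of 30% and 5%. The fitting code was tested on simulated data.

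Library numbers mark the ESC line, so libraries pair across groups by line. Deviations from group means correlated at a median of 0.02 between libraries of the same line (53 pairs, -0.15 to 0.26) and -0.01 between lines (104 pairs). Alternatives were TMM scaling, other pseudocounts, no filter, line as a block and leaving out each library. Leaving out libraries or adding the block after TMM scaling, and counting genes of chromosomes 6 and 8 apart, were added after seeing the data.

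The members and gene lists were chosen with earlier results of these data known. Genes were named where they were among the 3 largest rises or falls called in a comparison without scaling, had the 4 widest or narrowest ranges or the 3 highest or lowest CPM, or belonged to a panel of known roles, while a few shown with their list or chromosome were chosen after their values were seen. Chromosomes, exon lengths and overlaps came from GENCODE M21, a later build than the files', and promoters from RefSeq (build GRCm38.p6), and no coordinate was compared with the files. The genes now called Mrpl57 and Mrpl58 stand in the table under the older symbols Mrp63 and Ict1, and were counted among the mitochondrial ribosomal proteins with other symbols.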

Additional observations from a re-analysis of the deposited data

Results flagged for a closer look

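The 2i/L effect differed between passages 20 and 10 in the test of the difference itself for 17 genes without scaling, all higher at passage 20, and after TMM scaling for 6 genes that were higher and 10 that were lower. The 6 genes higher on both scales, with their difference between the effects without scaling, were Mrps16 at 1.14, Mrps25 at 0.98, Mrpl34 at 0.97, Mrps12 at 0.90, Mrps15 at 0.82 and Mrps35 at 0.71 (log2). Mrps25, Mrps35 and Mrpl34 lie on chromosomes 6 and 8, whose other genes were also higher in 2i/L at passage 20 after scaling, and the part of the chromosome was not tested. No group held more than 3 libraries, so single libraries were not tested for standing apart from their group.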

How the results depend on the processing

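TMM scaling moved 13 of the 16 counts by over 1.5 times. With TMM scaling the called genes numbered 4 higher and 29 lower in 2i/L at passage 10, 4 higher in a2i/L, 11 higher in PKCi/L, 6 higher and 14 lower in S/L+PD, and 11 higher and 37 lower in 2i/L at passage 20. They numbered 11 higher and 21 lower in the returned cells against S/L, 26 higher against 2i/L, and 6 higher and 10 lower in the test of 2i/L by passage. The scaled median difference of the 75 genes was 0.0196 in PKCi/L, -0.22 in 2i/L at passage 20, -0.0852 in the returned cells against S/L, 0.16 against 2i/L and -0.0527 in the test of 2i/L by passage. Those in PKCi/L, in 2i/L at passage 20, in the returned cells against S/L and in the test by passage changed sign with the scaling, and the cause was not tested. Pseudocounts of 0.1 and 1, no filter and ESC line as a block kept all 16 unscaled counts within 1.5 times. Of the 35 named calls the block ended that of Mrps5 in S/L+PD and TMM scaling that of Mrps10 in the return against 2i/L, and no named call changed direction. The block with TMM scaling moved no count by over 1.5 times.

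Counts and medians with each library left out in turn are given as their lowest and highest values. For 2i/L at passage 10 they were 0 to 1 higher and 0 to 11 lower, with TMM scaling 1 to 5 higher and 8 to 32 lower, and a median of -0.30 to -0.0885. For a2i/L they were 0 to 0 higher and 1 to 6 lower, with TMM scaling 1 to 6 higher and 2 to 16 lower, and a median of -0.31 to -0.0930. For PKCi/L they were 0 to 0 higher and 3 to 6 lower, with TMM scaling 2 to 14 higher and 2 to 6 lower, and a median of -0.30 to -0.0187. For S/L+PD they were 1 to 2 higher and 1 to 8 lower, with TMM scaling 3 to 8 higher and 3 to 18 lower, and a median of -0.27 to -0.0484. For 2i/L at passage 20 they were 16 to 27 higher and 0 to 15 lower, with TMM scaling 9 to 11 higher and 34 to 40 lower, and a median of -0.00122 to 0.23. For the return against S/L they were 10 to 25 higher and 0 to 5 lower, with TMM scaling 9 to 14 higher and 14 to 22 lower, and a median of -0.0104 to 0.27. For the return against 2i/L they were 3 to 7 higher and 2 to 4 lower, with TMM scaling 20 to 26 higher and 2 to 3 lower, and a median of -0.03 to 0.08. For the test of 2i/L by passage they were 5 to 23 higher and 0 to 1 lower, with TMM scaling 3 to 11 higher and 6 to 12 lower, and a median of 0.10 to 0.37. Leaving out a library ended 39 single-gene calls and kept 149. Where it left 1 library in a group, that library was assumed to vary like those of the other groups. Groups of 2 or 3 libraries and levels down to 1.11 CPM limit what could be called.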
